A study of Mus musculus with 6 samples.

Results

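The CELF (CUGBP Elav-like family) genes were examined at the level of single exon probe sets in mouse cortical neuron cultures in which the first of them was knocked down. The members are the 6 paralogs Celf1 to Celf6, which the array's probe annotation lists under the older names Cugbp1, Cugbp2, Tnrc4, Brunol4, Brunol5 and Brunol6. They were taken by name: a probe set was a member where its annotation gave 1 of these symbols alone. This gave 155 probe sets, of 1195555 on the array, with 32 for Celf1, 43 for Celf2, 25 each for Celf3 and Celf4, 16 for Celf5 and 14 for Celf6. In the RefSeq gene table Celf1 and Celf2 lie on chromosome 2, Celf3 on chromosome 3, Celf4 on chromosome 18, Celf5 on chromosome 10 and Celf6 on chromosome 9. The positions of the probe sets within the genes were not used here, so no probe set is assigned to an exon number, a coding exon or a UTR.

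Total RNA was measured on 6 exon arrays, 3 after lentiviral delivery of a short hairpin RNA (shRNA) against mouse Cugbp1 and 3 after lentiviral delivery of a control shRNA. Both groups were cortical cells of C57Bl/6 embryos at embryonic day 15, without meninges, cultured with BDNF and CNTF and given AraC, a DNA synthesis inhibitor that removes dividing cells, from day 2. Cells met the virus on day 5, for 4 hours, and were harvested on day 11, and each array took 100 ng of RNA. The sources used here do not give the hairpin's sequence, the promoter that drives it or the share of infected cells, and nothing says whether the arrays of a group came from separate cultures, so the p-values measure the spread between these arrays, which may be technical. In both groups, the treatment notes for replicates 2 and 3 speak of Tdp-43 as the hairpin's target, while titles and genotype labels name Cugbp1 or control. Values for these replicates alone are therefore given beside the main ones.

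CELF proteins bind GU-rich RNA through RNA recognition motifs and act in alternative splicing in the nucleus and in deadenylation, decay and translation of mRNA in the cytoplasm. Celf1 is the founding member, first known as a protein that binds CUG repeats and studied for its part in myotonic dystrophy. Celf1 and Celf2 are close relatives expressed in many tissues, whereas Celf3, Celf4, Celf5 and Celf6 form another subgroup that is expressed largely in the nervous system.

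Celf1 fell on every array given the Cugbp1 shRNA. Its gene value, the median polish of its probe sets on the log2 scale, was 9.59, 9.40 and 9.33 in replicates 1, 2 and 3 of the Cugbp1 shRNA group, against 10.85, 10.79 and 10.75 in those of the control group. The 2 groups did not overlap, and the arrays of a group lay far closer to each other than to the other group. The difference of -1.36 (standard error 0.10, limma adjusted p = 0.0124) corresponds to 39.1% of control, and its 95% confidence interval runs from 33.3% to 45.9%. Celf1 was the 1 CELF gene called, and over all 16525 genes tested 3.94% were called at an adjusted p under 0.05. In bulk RNA, fewer cells holding a transcript and less of it per cell cannot be told apart. With 1 array left out the difference kept its direction, at -1.43 to -1.32, but passed the threshold only without control replicate 1 (adjusted p = 0.0308), and ranged up to an adjusted p of 0.141 in the other cases.

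**Figure D1:**
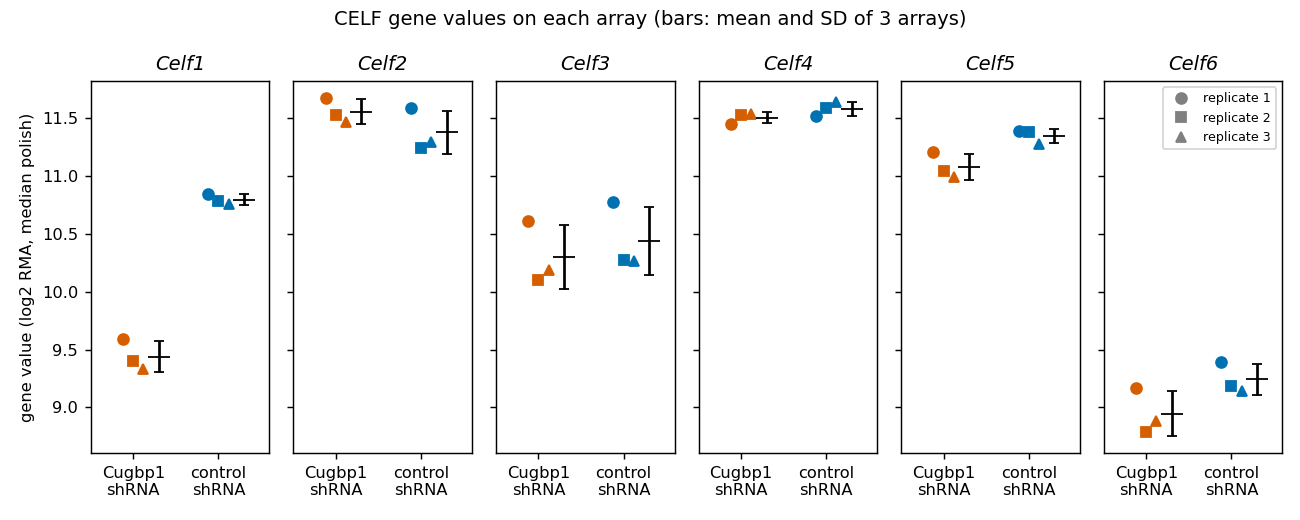
Gene values (log2 RMA, vertical axis) of the 6 CELF genes on each array, with Cugbp1 shRNA arrays (orange) left of control arrays (blue), symbols for replicate numbers, and the mean and SD of 3 arrays beside each group. Celf1 lay between 9.33 and 9.59 in the Cugbp1 shRNA group and between 10.75 and 10.85 in the control group, and heights are not comparable between genes because each has its own probes.

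The fall of Celf1 was seen in most of its probe sets, and its size differed between them. Of its 32 probe sets, 27 had a mean over the 6 arrays at or above 5.73, the median of all probe sets, and were kept. In 22 of these 27 (81.5%) every Cugbp1 shRNA array lay below every control array, against 6.57% of all 597778 kept probe sets. These 22 had 20.3% to 62.5% of the control level, and 18 of them were below 50%. The same 22 had an unadjusted p under 0.05, against 5.92% of all kept probe sets, and none passed after adjustment over all of them (smallest adjusted p = 0.417, limma). Over all kept probe sets 0% passed. Probe sets of 1 gene share its RNA and the same 6 arrays, so these counts are not independent observations.

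Probe set 4965145 fell most, with 9.36, 8.71 and 8.68 in the Cugbp1 shRNA replicates against 11.55, 11.21 and 10.88 in the controls, or 20.3% of the control level. Probe set 4623434 followed, with 7.82, 7.17 and 7.27 in the Cugbp1 shRNA group and 9.85, 9.36 and 9.27 in the control group, or 23.7%. Probe set 4540271 had 9.09, 9.13 and 8.38 in the Cugbp1 shRNA group and 11.00, 10.88 and 10.49 in the control group, or 26.3%. All 3 lay below the lower end of the interval for the Celf1 gene value. At the other end of the 22, probe set 4386487 had 8.13, 7.98 and 7.76 in the Cugbp1 shRNA group and 8.91, 8.65 and 8.35 in the control group, or 62.5%.

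**Figure D2:**
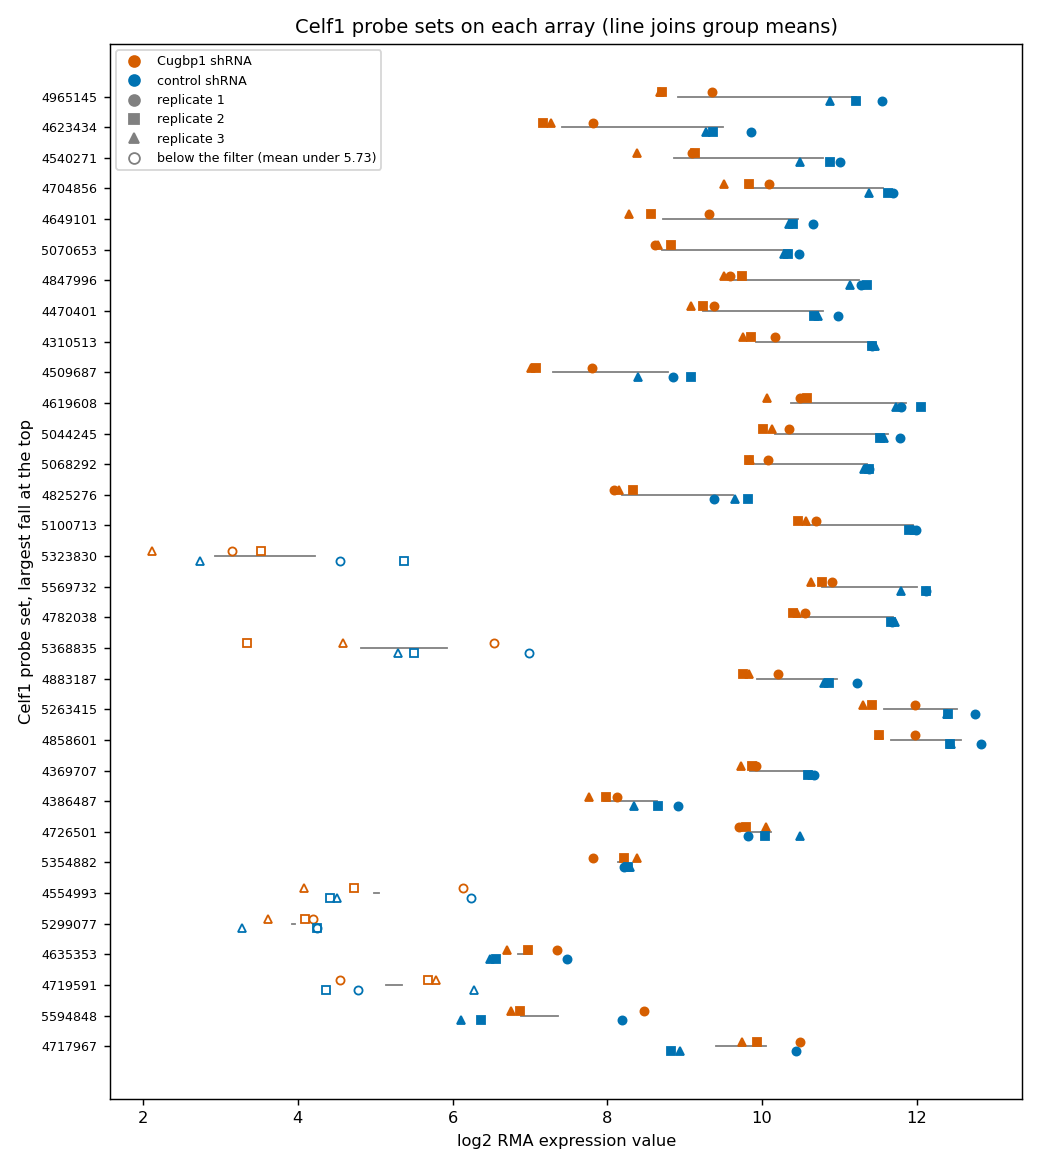
All 32 Celf1 probe sets (rows, largest fall at the top) with their log2 RMA value on each array (horizontal axis), Cugbp1 shRNA in orange drawn above control in blue, symbols for replicate numbers and a line joining the group means. Open symbols mark the 5 probe sets under the filter. The orange and blue symbols separate in 22 filled rows and overlap in 5, where the difference runs from -0.27 to 0.66.

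The groups overlapped in the other 5 of the 27 kept Celf1 probe sets, which escaped the fall in that sense. Probe set 4717967 was the clearest, with 10.49, 9.93 and 9.74 in the Cugbp1 shRNA group against 10.44, 8.82 and 8.94 in the control group. It was higher with the Cugbp1 shRNA in each pair of same-numbered replicates, by 0.05, 1.11 and 0.80. Probe set 5594848 likewise had 8.48, 6.87 and 6.75 in the Cugbp1 shRNA group and 8.19, 6.37 and 6.11 in the control group, and its pair differences were 0.29, 0.50 and 0.64. In both, replicate 1 of each group stood above replicates 2 and 3 of the same group.

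Probe set 4635353 had 7.35, 6.98 and 6.70 in the Cugbp1 shRNA group and 7.48, 6.56 and 6.48 in the control group, with pair differences of both signs. Probe set 4726501 had 9.71, 9.79 and 10.05 in the Cugbp1 shRNA group and 9.82, 10.04 and 10.50 in the control group, lower in each pair but by 0.44 at most. Probe set 5354882 had 7.82, 8.22 and 8.39 in the Cugbp1 shRNA group and 8.22, 8.27 and 8.29 in the control group. The means of these 5 probe sets over the 6 arrays ran from 6.92 to 9.98, so each passed the filter, and the means of the 22 others ran from 8.04 to 12.11.

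The 5 Celf1 probe sets under the filter had means between 3.57 and 5.37 and also overlapped. Probe set 5323830 had 3.15, 3.52 and 2.11 in the Cugbp1 shRNA group and 4.55, 5.37 and 2.74 in the control group, lower in each pair. Probe set 5368835 was also lower in each pair, with 6.53, 3.34 and 4.58 in the Cugbp1 shRNA group and 6.98, 5.51 and 5.29 in the control group. The other 3, 4554993, 5299077 and 4719591, differed by -0.07, 0.05 and 0.20. At this signal the array did not separate the groups for any of the 5.

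Exon usage was tested as the departure of each probe set from the rest of its gene, on the log2 scale (limma's diffSplice). Over the whole gene the departures of Celf1 passed (F test over 27 probe sets, adjusted p = 6.33e-11), against 0.496% of genes, and none of the 5 paralogs did (adjusted p = 1 for each). With the replicate number as a block the F test also passed for Celf2 (adjusted p = 0.000376), Celf3 (adjusted p = 0.0125) and Celf5 (adjusted p = 0.0021), not for Celf4 (adjusted p = 0.0522) or Celf6 (adjusted p = 0.632), and it passed for 14.6% of all genes. Singly, 4 of 27 Celf1 probe sets were called, against 0.0822% of the 244606 probe sets tested. Probe sets 4717967, 5594848 and 4635353 lay above the rest of the gene, by 1.86 (adjusted p = 3.51e-05), 1.68 (adjusted p = 0.000318) and 1.36 (adjusted p = 0.0108), each with a standard error of 0.28. Probe set 4965145 lay below it, at -1.21 (adjusted p = 0.0465). Of the called probe sets, the first 3 are among those whose groups overlapped and the last is the one that fell most.

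This test takes 1 spread for all probe sets of a gene, so the standard error of 0.28 is not that of the single probe sets. In the limma fit of single probe sets, the change had a standard error of 0.45 for 4717967, 0.66 for 5594848 and 0.31 for 4635353. For 4965145 it was 0.26. The 3 called above the rest of the gene were thus tested with a smaller spread than their own. The Celf1 count depended on how the spread was modelled and on single arrays. With the replicate number as a block it was 14, of which 6 lay above and 8 below the rest of the gene (2.37% of all probe sets called). It was 2 without Cugbp1 shRNA replicate 2 or without Cugbp1 shRNA replicate 3, 0 without control replicate 2, 1 without the filter on low values, and 0 with a splicing index that gives each probe set its own spread (14 of 27 had an unadjusted p under 0.05 there).

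The spread of the changes over the probe sets of Celf1 had an SD of 0.755, against a median SD of 0.179 over the 7093 genes with at least 14 kept probe sets. Of those 7093 genes, 0 had a higher SD than Celf1. For Celf2 to Celf6 the SD was 0.231, 0.178, 0.228, 0.212 and 0.151. This ranking is a description and no test. It does not allow for the size of a gene's change, which was -1.36 for Celf1 against a median of -0.01 over all genes tested.

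**Figure D3:**
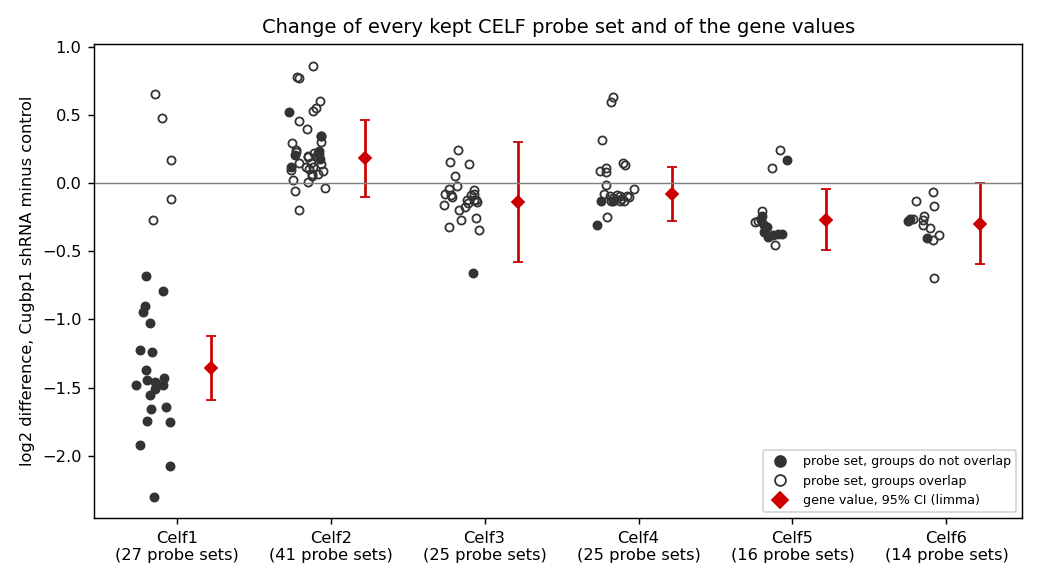
Log2 difference, Cugbp1 shRNA minus control (vertical axis), of each kept probe set (circles, filled where the groups do not overlap) and of the gene value with its 95% confidence interval from limma (red diamonds) for the 6 CELF genes. Celf1 probe sets run from -2.30 to 0.66 and those of the paralogs from -0.69 to 0.86.

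Celf2, the nearest relative of Celf1, was the 1 paralog with mostly higher values, and its gene value did not pass. It was 11.68, 11.53 and 11.47 in the Cugbp1 shRNA group and 11.59, 11.25 and 11.29 in the control group. Each Cugbp1 shRNA array was above the control of the same number, by 0.08, 0.28 and 0.18, but control replicate 1 was above 2 of the Cugbp1 shRNA arrays. The difference of 0.18 (standard error 0.12, adjusted p = 0.507) had an interval from -0.10 to 0.46, so a level above 138% of control lies outside it. With the replicate block the interval was 0.03 to 0.34 and the adjusted p 0.0926, and with array weights, which count less consistent arrays less, the difference was 0.25 (adjusted p = 0.0374).

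Of 41 kept Celf2 probe sets, 38 had a higher mean with the Cugbp1 shRNA. In 29 of 41 (70.7%) the Cugbp1 shRNA array was the higher in all 3 pairs, against 20.4% of all kept probe sets. In 7 of 41 (17.1%) the groups did not overlap upwards, against 5.44% of all kept probe sets, and in 0 of 41 did they separate downwards. Probe set 5302519 had 12.39, 12.18 and 12.34 in the Cugbp1 shRNA group and 12.03, 11.44 and 11.89 in the control group, the 1 Celf2 probe set with an unadjusted p under 0.05 (unadjusted p = 0.0383, adjusted p = 0.808, limma over all probe sets). The highest change belonged to probe set 5289021, with 8.68, 7.47 and 7.69 in the Cugbp1 shRNA group and 8.41, 6.39 and 6.44 in the control group, which overlapped because of replicate 1. The lowest belonged to probe set 4887165, with 8.73, 9.01 and 8.93 in the Cugbp1 shRNA group and 9.21, 9.08 and 8.96 in the control group.

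Celf5 and Celf6 had mostly lower values. Celf5 was at 11.21, 11.04 and 10.99 in the Cugbp1 shRNA group and 11.39, 11.38 and 11.28 in the control group, without overlap. Its difference of -0.27 (standard error 0.09, adjusted p = 0.179) passed with the replicate block (adjusted p = 0.0275), a fit that called 23.2% of all genes. Celf6 was at 9.17, 8.79 and 8.88 in the Cugbp1 shRNA group and 9.40, 9.19 and 9.14 in the control group, with Cugbp1 shRNA replicate 1 above control replicate 3. Its difference of -0.30 (standard error 0.13, adjusted p = 0.271) also passed with the block (adjusted p = 0.0221).

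All 14 Celf6 probe sets had a lower mean, by 0.06 to 0.69, and 10 of 14 (71.4%) were lower in all 3 pairs, against 19.5% of all kept probe sets. The largest Celf6 difference was that of probe set 4421658, with 7.89, 7.37 and 7.99 in the Cugbp1 shRNA group and 8.72, 8.65 and 7.96 in the control group, where the replicate 3 arrays were nearly level. The smallest was that of probe set 5421301, at -0.06. Of 16 Celf5 probe sets, 13 (81.2%) were lower in all 3 pairs, and in 9 (56.2%) the groups separated downwards, against 6.57% of all kept probe sets. Those 13 had means of 10.50 to 12.71, and the 3 with a higher mean, 4387261, 5495778 and 4671212, had means of 5.98 to 8.70. Probe set 5600802 had the lowest Celf5 change, -0.46, with 11.03, 10.56 and 10.55 in the Cugbp1 shRNA group and 11.34, 11.22 and 10.95 in the control group. Probe set 4671212 had the highest, 0.24, with 7.39, 5.49 and 5.43 in the Cugbp1 shRNA group and 6.86, 5.60 and 5.13 in the control group. Its replicates 2 and 3 lay under the filter level of 5.73 in both groups, so it was kept only through replicate 1. Probe set 5495778 had 8.85, 8.65 and 8.85 in the Cugbp1 shRNA group and 8.64, 8.59 and 8.61 in the control group, the 1 probe set of Celf5 whose groups separated upwards.

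Celf3 and Celf4 differed least. Celf3 was at 10.61, 10.10 and 10.19 in the Cugbp1 shRNA group and 10.78, 10.27 and 10.26 in the control group, a difference of -0.14 (standard error 0.19, adjusted p = 0.806) that became 0.04 without control replicate 1. The replicate 1 arrays of both groups stood above the other 4 by more than the groups differed. Among its 25 probe sets, 5011279 separated the groups, with 9.71, 9.30 and 9.25 in the Cugbp1 shRNA group and 10.32, 10.05 and 9.88 in the control group (limma adjusted p = 0.692), and 5547118 had the highest change, at 0.24. Celf4 was at 11.45, 11.52 and 11.54 in the Cugbp1 shRNA group and 11.52, 11.59 and 11.64 in the control group, a difference of -0.08 (standard error 0.08, adjusted p = 0.730). That difference was 0.0019, of the other sign, when probe sets were averaged instead of median polished. Of its 25 probe sets, 17 had a lower and 8 a higher mean, with 5082694 lowest at -0.31 and 5006398 highest at 0.63. Probe set 5082694 had 9.92, 10.00 and 9.97 in the Cugbp1 shRNA group and 10.14, 10.22 and 10.46 in the control group, without overlap. Probe set 5006398 had 9.08, 8.47 and 8.31 in the Cugbp1 shRNA group and 9.08, 7.48 and 7.40 in the control group, level in replicate 1 and higher with the Cugbp1 shRNA in replicates 2 and 3.

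The main fit called no rise in the gene value of any of the 5 paralogs. Of the alternatives, only array weights called a rise, that of Celf2 (limma adjusted p = 0.0374). In the main fit the limits were as follows. The upper ends of the 95% confidence intervals were 138% of control for Celf2, 123% for Celf3, 109% for Celf4, 96.8% for Celf5 and 100.2% for Celf6. Of the 121 kept paralog probe sets, 53 had a higher and 68 a lower mean, 8 (6.61%) separated upwards and 16 (13.2%) downwards, against 5.44% and 6.57% of all kept probe sets, so the upward share was near that of all probe sets. Dropping any 1 array raised the upward count, to between 9 and 36. The count of 36 came from dropping control replicate 1, and dropping Cugbp1 shRNA replicate 3 gave 14. Fewer arrays make separation easier for any probe set, and the share of all probe sets is not given for 5 arrays. These counts therefore cannot be set against the 5.44% and are not read as a rise of the paralogs. In diffSplice 0 of the 121 were called, against 0.0822% of the 244606 probe sets tested. Without control replicate 1 there were 3, for which no share of all probe sets is given. With the replicate block, which called 2.37% of all probe sets tested, there were 8. Above the rest of their gene were 5457071, 4853171 and 5289021 of Celf2, 4812562 and 5006398 of Celf4 and 5495778 and 4671212 of Celf5. Probe set 5011279 of Celf3 lay below it. At an unadjusted p under 0.05 in the limma fit of single probe sets there were 3 of 121, against 5.92% of all kept probe sets. Without the block, the smallest diffSplice p within each paralog belonged to 5289021 of Celf2, 5011279 of Celf3, 4671212 of Celf5 and 4421658 of Celf6, each with an adjusted p of 1, and to 5006398 of Celf4 (adjusted p = 0.862).

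Several of the probe sets that lay above the rest of their gene shared an array pattern, examined after their values were seen. The offset of replicate 1, the mean of the 2 replicate 1 arrays minus the mean of the other 4, was 1.81 for Celf1 probe set 5594848 and 1.10 for 4717967, against a median of 0.25 over the 22 Celf1 probe sets that fell. It exceeded 1 in 8 Celf2 probe sets, all 8 with a higher mean in the Cugbp1 shRNA group and 7 of them higher in all 3 pairs. Of all 41 kept Celf2 probe sets 38 had a higher mean and 29 were higher in all 3 pairs, so these 8 had the direction of their gene. The offset also exceeded 1 in 3 probe sets of Celf3, 2 of Celf4 and 1 of Celf5, of which 2, 2 and 1 had a higher mean and 0 were higher in all 3 pairs. Among all 244606 kept probe sets of tested genes 4753 had such an offset, 62.7% of these had a higher mean with the Cugbp1 shRNA, and 1308 were higher in all 3 pairs.

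Across the probe sets of a gene the change and the offset correlated at 0.38 for Celf1 (n = 27), 0.73 for Celf2 (n = 41), 0.34 for Celf3 (n = 25), 0.84 for Celf4 (n = 25), 0.46 for Celf5 (n = 16) and -0.50 for Celf6 (n = 14). Over the 7093 genes with at least 14 kept probe sets the median was 0.05 and the quartiles were -0.18 and 0.29. The rank correlation was 0.03 for Celf1 and -0.30 for Celf5, of the other sign, so these 2 values rest on few probe sets. The change and the mean level correlated at -0.37, -0.50, -0.17, -0.67, -0.85 and 0.37 for Celf1 to Celf6, with a median of 0.08 over the same genes. With the control level in place of the mean level, the values were -0.57, -0.54, -0.23, -0.70, -0.87 and 0.28. The rank correlations with the control level were -0.265, -0.425, -0.382, -0.50, -0.362 and 0.116, so the high value of Celf5 rests on few probe sets. These are descriptions, since the points share 6 arrays and the RNA of 1 gene, and the part of signal level or of replicate number in the probe set differences was not tested.

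**Figure D4:**
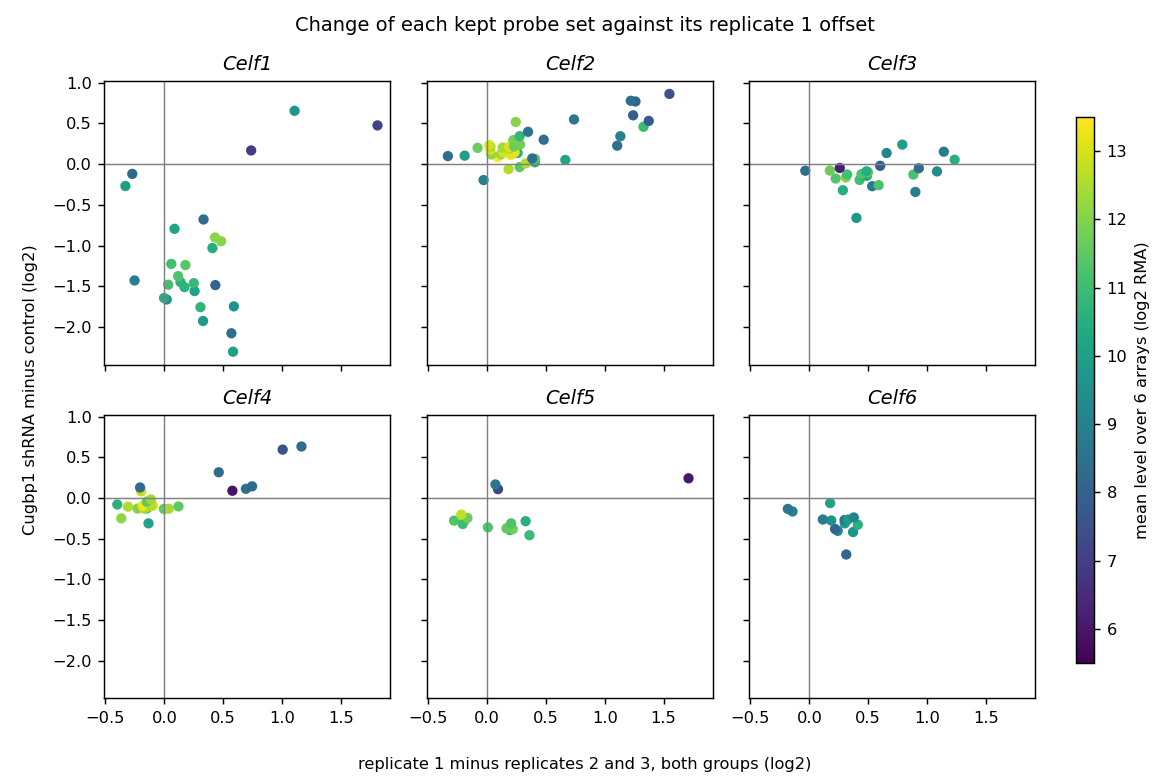
Change of each kept probe set (vertical axis, log2, Cugbp1 shRNA minus control) against its replicate 1 offset (horizontal axis, log2, both groups), a panel per gene, coloured by mean level. The Celf2 and Celf4 points with offsets above 1 lie above 0 on the vertical axis, and the same holds for the 2 such Celf1 points.

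Replicates 2 and 3 alone, whose treatment text names Tdp-43, gave a Celf1 difference of -1.40 (adjusted p = 0.0301 without and 0.0288 with a replicate block). The replicate 1 pair differed by -1.25. Of 27 kept Celf1 probe sets, 23 were lower in both pairs of replicates 2 and 3, a looser criterion than separated groups. The share of all probe sets is not given for it. In all 3 pairs 23 of 27 (85.2%) were lower, against 19.5% of all kept probe sets. Celf2 was at 0.25 in replicates 2 and 3 with the block (adjusted p = 0.0773). Celf5 was at -0.32 there (adjusted p = 0.0482), and Celf6, also at -0.32, had an adjusted p of 0.0609.

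Among 13 regulators, partners and antagonists of CELF1, 8 had a higher and 5 a lower mean, and 0 were called by limma (3 at an unadjusted p under 0.05). The list's median change was 0.08, against -0.01 over all genes tested. Parn, a deadenylase that CELF1 is known to recruit to mRNA in human cells, had the smallest p, at -0.35, with an adjusted p of 0.0916, which the replicate block lowered to 0.0130. Ccnd3, a cyclin D known to act on CELF1 through its kinase partner, was at 0.31 (adjusted p = 0.142, and 0.0133 with the block). With the block 3 rose and 1 fell, 4 of 13, in a fit that called 23.2% of all genes. Mbnl1 and Mbnl3, of the muscleblind family of splicing factors, were the other 2 that rose with the block, by 0.36 and 0.48 (adjusted p = 0.0107 and 0.00966), and were chosen for naming after their values were seen.

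Over the 6 arrays, the 5 genes whose values followed those of Celf1 most closely were Gaa (r = 0.999), Septin11 (r = 0.999), Tspan2 (r = 0.998), Txndc5 (r = 0.997) and Ubap2 (r = 0.997). All had lower values with the Cugbp1 shRNA, at -0.55 for Gaa, -0.34 for Septin11, -2.06 for Tspan2, -1.22 for Txndc5 and -0.66 for Ubap2. Of the 5, Septin11 did not pass in limma (adjusted p = 0.0638) but passed with the replicate block (adjusted p = 0.0102), a fit that called 23.2% of all genes. With 6 arrays in 2 groups, such a correlation carries the difference between the groups.

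Marker genes of the cell types such cultures can hold were compared between the groups, with motor neurons among them because the design text of the series names these. Levels of different lists are not comparable, since each gene has its own probes. The mean gene value of 10 neuronal markers was 11.51 to 11.54 in the Cugbp1 shRNA group and 11.45 to 11.53 in the control group. Of these markers 4 had a higher and 6 a lower mean with the Cugbp1 shRNA. Gad2 was the 1 called, higher by 0.77, joined by Gad1 (0.46, adjusted p = 0.00825) with the replicate block. The mean gene value of 4 motor neuron markers was 6.39 to 6.59 in the Cugbp1 shRNA group and 6.51 to 6.70 in the control group. None was called, but Slc5a7 was lower with the block (-0.43, adjusted p = 0.0135). Astrocyte markers lay at 9.23 to 9.52 in the Cugbp1 shRNA group and 9.43 to 9.50 in the control group (7 tested, 0 called, 0 at an unadjusted p under 0.05). Oligodendrocyte lineage markers lay at 9.56 to 9.69 in the Cugbp1 shRNA group and 9.41 to 9.68 in the control group (6 tested, 0 called, 0 at an unadjusted p under 0.05). Microglia markers lay at 6.57 to 6.84 in the Cugbp1 shRNA group and 6.62 to 6.91 in the control group. Endothelial and mural markers lay at 6.70 to 7.01 in the Cugbp1 shRNA group and 6.83 to 7.27 in the control group, and fibroblast markers at 8.21 to 8.59 in the Cugbp1 shRNA group and 8.18 to 8.68 in the control group. Of these, the mural marker Pdgfrb was the 1 called, at -0.80. With the block the astrocyte marker Aldh1l1 (-0.21, adjusted p = 0.0411) and the microglia marker C1qa (-0.23, adjusted p = 0.0362) were called too. The block thus called 2 of 10 neuronal, 1 of 7 astrocyte, 1 of 7 microglia, 1 of 5 endothelial and mural and 1 of 4 motor neuron markers. Over all genes tested 23.2% were called with the block and 3.94% without, so no shift of a cell type is read from these calls. The ranges of the groups overlapped for every list, and the part of other cell types in the CELF values was not tested.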

How the data were processed

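The deposited table holds a log2 value for each exon probe set and array, made by the authors with the RMA method of Affymetrix Expression Console, per the submitters' processing notes, which name mm9. RMA gives all arrays the same overall distribution, so a difference in total RNA is removed. The sources used here give neither the software version nor the set of arrays normalized as a unit. Medians of the 6 arrays differed by at most 0.0415. The number of arrays limits the precision.

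Probe sets were named by the platform's annotation (316997 with 1 symbol, 6571 with several, 871987 not listed), updated through the RefSeq gene table of GRCm38.p6, which served for names and chromosomes only. Of 22264 symbols 17988 were current, 4213 were updated and 63 kept as given. The symbol D230046B21Rik, which RefSeq folds into Celf2 (3 probe sets), was not counted as a member. Probe sets whose mean over the 6 arrays reached the median, 5.73, were kept, and Tukey median polish of 3 or more of them gave the gene values. Differences (Cugbp1 shRNA minus control) were tested over all genes or probe sets with limma 3.58.1 in R 4.3.3 (lmFit, eBayes, diffSplice), two-sided, with Benjamini-Hochberg adjustment and a threshold of 0.05. diffSplice takes 1 spread per gene, and on simulated data it called many unchanged probe sets, where a splicing index called few but recovered fewer changed ones. Plots were made in matplotlib 3.10.9.

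The arrays without a number in the title were taken as replicate 1. Same-numbered arrays deviated together from their group means (r = 0.763, 0.504 and 0.715 across genes), and the numbers were taken to pair the arrays. Deviations within a group cancel out, so a shift of the replicate 1 arrays alone would also raise r for replicates 2 and 3. The pairing of replicates 2 and 3 is thus an assumption. Blocked values, which rest on it, stand where they change a call. The members and lists were chosen with earlier results of these data known. The text names the 6 genes, the Celf1 probe sets whose groups overlapped or that fell most or least, those called by diffSplice, the highest and lowest of each paralog, called list members and the 5 genes most correlated with Celf1. List members called only with the block were named after their values were seen. Tdp-43 itself, promoters and miRNAs were not analysed here.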

Additional observations from a re-analysis of the deposited data

How the results depend on the processing

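The direction of Celf1, Celf2, Celf5 and Celf6 held under all alternatives run: replicate block, random replicate block, no filter, a stricter filter (mean of 7.46), array weights, a robust variance trend, quantile normalization, means in place of median polish, each array left out, and replicates 2 and 3 alone. Leaving out 1 array moved Celf1 between -1.43 and -1.32, Celf2 between 0.12 and 0.30, Celf3 between -0.27 and 0.04, Celf4 between -0.09 and -0.02, Celf5 between -0.31 and -0.23 and Celf6 between -0.39 and -0.22. Celf3 reversed without control replicate 1 (0.0449) and Celf4 with means of probe sets (0.0019). Celf5 passed with the replicate block and the random block (-0.27 in both), array weights (-0.33), and replicates 2 and 3 with the block (-0.32), an alternative added after seeing the data; Celf6 passed with both blocks (-0.30) and array weights (-0.35), and Celf2 with array weights (0.25). The replicate block changed no other call of a CELF gene value.

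Separated Celf1 probe sets numbered 22 to 24 with 1 array left out. Paralog probe sets separated upwards numbered 8, 9 to 36 with 1 array left out (36 without control replicate 1), and 37 in replicates 2 and 3 alone. By pairs, an unlike criterion, 34 of 121 were higher in all 3, against 20.4% of all kept probe sets. In the pairs of replicates 2 and 3 alone 42 were higher. Fewer arrays or pairs make each criterion easier for any probe set. Shares over all probe sets are not given for the reduced sets, so these counts form no series. Celf1 exon usage calls numbered 14 with the replicate block, 12 with the random block, 1 without a filter, 0 by splicing index, 0 to 4 with 1 array left out, and 9, or 14 with the block, in replicates 2 and 3 alone. Paralog calls numbered 8 with the replicate block, 5 with the random block, 0 to 3 with 1 array left out, and 3, or 7 with the block, in replicates 2 and 3 alone. The cause of these shifts was not tested. The random block and the trend setting do not change which groups overlap and gave no such count.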
